A study of Mus musculus with 130 samples.

Results

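Aminoacyl-tRNA synthetases join each amino acid to its tRNA, the step on which the reading of the genetic code rests. Each amino acid has its own enzyme, and mammals keep a cytosolic and a mitochondrial set, both encoded in the nucleus and mostly by separate genes. The enzymes fall into a pair of unrelated structural classes, and in the cytosol several of them are held together with scaffold proteins in the multi-synthetase complex. The early embryo begins with enzymes and mRNAs stored in the oocyte, and at the 2-cell stage of the mouse its own genome takes over. The genes were found by name: every gene in the authors' deposited table whose symbol is a synthetase symbol was taken. This gave 37 genes of 36134, of which 20 encode cytosolic enzymes and 17 mitochondrial ones.

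Single mouse 2-cell embryos of the strain B6129F1 were profiled with Smart-seq2, a full-length cDNA method that starts here from polyadenylated RNA and does not keep the strand. The 80 embryos of the treated group were cultured in KSOM medium with 10 µM SR1848, a small molecule used against the orphan nuclear receptor Nr5a2, and the 50 control embryos had 0.1% DMSO. All zygotes were taken 5 hours after fertilization, and treatment began at 6 hours in chambers without oil. The design text counts 56 controls, and the other 6 were not analysed here. The labels tie no embryo to a female, a drop or a plate, so p-values measure the spread between these embryos, which may in part be technical. Each library is a whole embryo, so fewer cells and less RNA per cell cannot be told apart.

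Counts assigned to genes came to 2705843 to 7773512 per SR1848 embryo and 3150018 to 8380057 per DMSO embryo. Values are CPM, counts relative to the TMM-scaled library size, and calls are those of edgeR's quasi-likelihood test, with p-values adjusted over 13222 genes and a threshold of 0.05. Of these genes 82.1% were called, 6033 higher with SR1848 and 4828 lower, around a median log2 fold change of 0.24. When libraries were scaled to a list of oocyte transcripts instead, whose 47 tested genes had a median log2 fold change of 0.94, the median of all genes became -0.33 and the calls were 3506 higher and 6223 lower. The median was 0.13 with RLE factors, 0.46 with upper-quartile factors and 0.05 with total counts. Nr5a2 had a median of 9.08 CPM with SR1848 and 95.8 CPM with DMSO. The summed level of 17 genes of the 2-cell stage was 1025 to 7305 CPM with SR1848 (median 3035), and 1780 to 3270 CPM with DMSO (median 2520).

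Most synthetase genes were lower in SR1848 embryos. Of the 36 synthetase genes tested, 23 were called lower (63.9%) and 5 higher (13.9%), where 36.5% of all genes tested were called lower and 45.6% higher. Their median log2 fold change was -0.96. Among the cytosolic genes 14 of 20 fell and 2 rose, with a median of -0.84, and among the mitochondrial genes 9 of 16 fell and 3 rose, with a median of -1.15. By 1 log2 unit or more, 18 of the 36 fell, against 25.8% of all genes tested, and 3 rose, against 28.2%. Both medians were below 0 under every scaling tried, from -0.63 to -1.41 for the cytosolic genes and from -0.90 to -1.89 for the mitochondrial genes. The gene not tested was Aars2, the mitochondrial alanine enzyme, which averaged 0.236 CPM with SR1848 and 0.474 CPM with DMSO and had no count in 67 of 80 SR1848 embryos and 35 of 50 DMSO embryos.

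**Figure D1:**
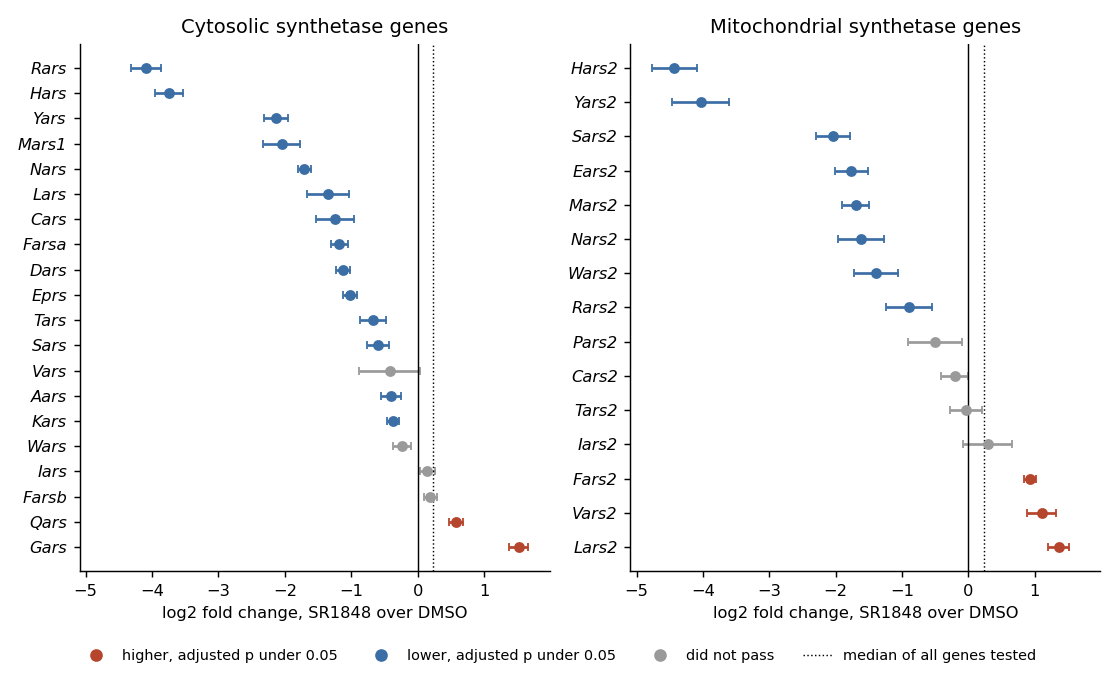
Log2 fold change of the tested synthetase genes reported here, SR1848 over DMSO, with its standard error as a bar, for cytosolic (left) and mitochondrial (right) genes; colour marks the edgeR call, and the dotted line is the median of all genes tested, 0.24. Rars, Hars, Hars2 and Yars2 stand at -3.74 or below, and Gars, Lars2, Vars2, Fars2 and Qars are the 5 called higher.

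The deepest cytosolic falls were in the enzymes for arginine and histidine. Rars (ENSMUSG00000018848, minus strand of chr11:35808381-35834506 on GRCm38), the arginine enzyme and a member of the multi-synthetase complex, had 0, 8.12 and 85.2 CPM as lowest, median and highest value in SR1848 embryos, against 101, 184 and 329 CPM in DMSO embryos. No embryo of either group reached into the range of the other. The log2 fold change was -4.09 (SE 0.223, edgeR adjusted p = 5.6e-37), which is 17.1-fold lower. Hars, the histidine enzyme, on the minus strand of chr18:36766528-36783205, had 0, 6.06 and 20.04 CPM with SR1848, against 29.2, 92.3 and 144 CPM with DMSO. Here too the groups did not overlap, and the log2 fold change was -3.74 (SE 0.206, edgeR adjusted p = 1.2e-36). Complete separation in that direction was seen in 224 genes, 1.69% of those tested, and in the other direction in 0.0151% of genes and in 0 of the 36 synthetase genes.

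A middle group of cytosolic enzymes fell by 1 log2 unit or more with some overlap between embryos. Yars, the tyrosine enzyme, had 0.496, 7.18 and 86.2 CPM with SR1848, against 14.7, 44.96 and 95.1 CPM with DMSO, and fell by 2.13 on the log2 scale (SE 0.177). Of the 80 SR1848 embryos, 66 lay below the lowest DMSO embryo. Nars, the asparagine enzyme, stayed abundant: it had 15.8, 53.4 and 186 CPM with SR1848, against 78.8, 183 and 359 CPM with DMSO, and its log2 fold change was -1.71 (SE 0.0975). Again most treated embryos, 64 of 80, were under every control. Mars1, which charges methionine for initiation as well as elongation, averaged 6.92 ± 8.19 CPM in SR1848 embryos and 28.7 ± 14.7 CPM in DMSO embryos (SD, n = 80 and n = 50), a log2 fold change of -2.05. The genes for leucine (Lars, -1.35), cysteine (Cars, -1.24), the alpha subunit of the phenylalanine enzyme (Farsa, -1.18), aspartate (Dars, -1.12) and glutamate with proline (Eprs, -1.02) also fell. Of these, Lars and Cars were low in both groups, at 4.71 and 4.62 CPM with SR1848 and 12.04 and 10.98 CPM with DMSO.

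Smaller falls and genes that did not pass made up the rest of the cytosolic set. Tars, for threonine (-0.67), Sars, for serine (-0.59), Aars, for alanine (-0.40), and Kars, for lysine (-0.37), which in mammals supplies the mitochondrial form too, passed in edgeR's quasi-likelihood test, with ranges that overlapped broadly. The call of Kars was lost with upper-quartile factors, and that of Aars with those factors and when protein-coding transcripts alone were summed. Wars (tryptophan, -0.24), Vars (valine, -0.42), Iars (isoleucine, 0.14) and Farsb (the beta subunit of the phenylalanine enzyme, 0.19) did not pass. Iars and Farsb turned below 0 with total counts or oocyte-transcript scaling, and both were called lower with oocyte-transcript scaling. Over the 16 other settings tried, Wars fell in 6, among them RLE factors, DESeq2 and limma-voom. Farsb was called higher in 5 of the settings, Iars higher in 2 and Vars lower in 2. Farsa and Farsb encode subunits that work together in equal number, yet Farsa averaged 15.1 ± 8.38 CPM with SR1848 and 34.3 ± 12.7 CPM with DMSO, while Farsb averaged 159 ± 73.1 CPM with SR1848 and 139 ± 34.2 CPM with DMSO (SD). The difference between these folds was not tested.

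Gars and Qars were the 2 cytosolic genes called higher. Gars (ENSMUSG00000029777, plus strand of chr6:55038007-55079500 on GRCm38) encodes the glycine enzyme, and in mammals the same gene also supplies the mitochondrial form. It had 40.4, 225 and 870 CPM as lowest, median and highest value with SR1848, against 24.5, 81.5 and 249 CPM with DMSO. Of the treated embryos, 33 of 80 were above the highest control and 77 were above the control median. The log2 fold change was 1.52 (SE 0.142, edgeR adjusted p = 4.2e-19), and its protein-coding entry Gars-201 held 99.99% of its counts with SR1848 and 100% with DMSO. Qars, the glutamine enzyme, had 18.2, 127 and 310 CPM with SR1848, against 41.9, 83.9 and 179 CPM with DMSO, with a log2 fold change of 0.57 (SE 0.104). Its ranges overlapped in most embryos, and its call was lost with oocyte-transcript scaling, where its log2 fold change was 0.04.

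**Figure D2:**
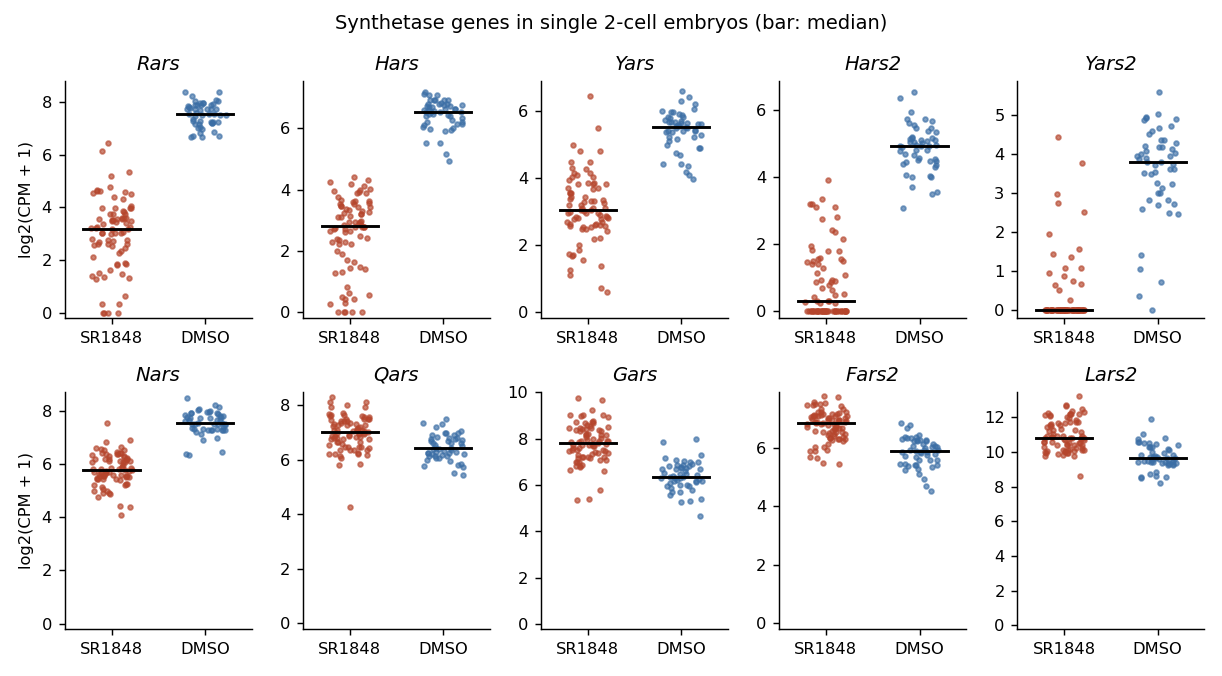
Log2(CPM + 1) of 10 synthetase genes in each embryo, SR1848 left (80 embryos) and DMSO right (50 embryos), with the median of each group as a bar. Rars and Hars show no overlap between the groups, Yars2 sits at 0 in 62 treated embryos, and Gars, Fars2 and Lars2 are shifted upward with wide overlap.

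Mitochondrial synthetases serve the small set of proteins made inside the organelle. The deepest falls were again for histidine and for tyrosine. Hars2, on the plus strand of chr18:36783008-36792562, had 0, 0.231 and 13.98 CPM with SR1848, against 7.41, 29.6 and 92.1 CPM with DMSO. Treated embryos lay below every control in 74 of 80 cases, and 37 had no count. The log2 fold change was -4.43 (SE 0.339, edgeR adjusted p = 9.2e-25), which is 21.6-fold lower. Yars2, on the plus strand of chr16:16302965-16309640, had 0, 0 and 20.9 CPM with SR1848, against 0, 12.96 and 47.6 CPM with DMSO. It had no count in 62 of 80 treated embryos and in 1 of 50 controls, and its log2 fold change was -4.04 (SE 0.428, edgeR adjusted p = 6.2e-16). A count of 0 in an SR1848 embryo allows up to 3 counts, or 1.11 CPM at the lowest total and 0.386 CPM at the highest.

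Hars and Hars2 lie head to head on opposite strands and share 198 bases of their annotated spans, and 7.86% of the 31-base words in the Hars transcripts occur in other genes. The libraries do not keep the strand, so reads from the shared stretch cannot be told apart, and the falls of these neighbours are not independent measurements there. Further falls were measured among others for the mitochondrial enzymes of serine (Sars2, -2.04), glutamate (Ears2, -1.77), methionine (Mars2, -1.70), asparagine (Nars2, -1.62), tryptophan (Wars2, -1.39) and arginine (Rars2, -0.90). Mars2 was the most abundant of these, with 0, 23.7 and 115 CPM with SR1848, against 24.5, 103.5 and 212 CPM with DMSO, and 41 treated embryos were under the lowest control. Rars2 lost its call with upper-quartile factors. Pars2 (proline, -0.51), Cars2 (cysteine, -0.21), Tars2 (threonine, -0.04) and Iars2 (isoleucine, 0.29) did not pass. With oocyte-transcript scaling Pars2, Cars2 and Tars2 were called lower, and Pars2 and Cars2 also with limma-voom. The value of Iars2 is uncertain, since 23.6% of its 31-base words are shared with other genes, nearly all with its neighbour Rab3gap2. Among the cytosolic genes the largest shares were 14.7% for Iars, mostly with Gm4849, and 14.4% for Aars, mostly with Exosc6.

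The 3 mitochondrial genes called higher were those for leucine, valine and phenylalanine. Lars2 (ENSMUSG00000035202, plus strand of chr9:123366927-123462666 on GRCm38) had the highest CPM of the synthetase genes in both groups. It had 387, 1800 and 9482 CPM with SR1848, against 291, 802 and 3762 CPM with DMSO. The groups overlapped, yet 79 of 80 treated embryos were above the control median and 16 above the highest control. Its log2 fold change was 1.36 (SE 0.158, edgeR adjusted p = 5.5e-14). Fars2 had 42.1, 113 and 214 CPM with SR1848, against 21.97, 58.5 and 114 CPM with DMSO, and its log2 fold change was 0.92 (SE 0.0948), with 39 treated embryos above every control. Its largest entry was the processed transcript Fars2-206, with 32.9% of its counts with SR1848 and 41.9% with DMSO, and 9.83% of its 31-base words occur in other genes, mostly Nrn1. Vars2 rose by 1.10 on the log2 scale from a low level, at 7.15 ± 4.47 CPM with SR1848 and 3.32 ± 2.32 CPM with DMSO (SD), and 7.28% of its 31-base words also occur in the overlapping antisense gene Gm20483. Nearly all Lars2 counts, 99.1% with SR1848 and 99.0% with DMSO, were assigned to Lars2-209, an entry annotated for nonsense-mediated decay. That entry has 21 exons and 3756 bases. Of its exon bases 6 are absent from the protein-coding Lars2-201, and 144 bases of Lars2-201 are absent from it. The choice between these entries therefore rests on short stretches. Where along Lars2 the reads lay was not tested, and the 31-base words were compared with annotated transcripts only.

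Because of Lars2, summed levels of the mitochondrial set ran opposite to most of its genes. The 17 mitochondrial genes summed to 2685 ± 1650 CPM with SR1848 and 1300 ± 570 CPM with DMSO. Without Lars2 the sums were 232 ± 64.9 CPM with SR1848 and 346 ± 73.2 CPM with DMSO, and 38 of 80 treated embryos were below the lowest control. The 20 cytosolic genes summed to 1308 ± 244 CPM with SR1848 and 1761 ± 245 CPM with DMSO, with 36 treated embryos below every control. The makeup of that sum differed between the groups: Gars held 19.5% ± 9.56 of it with SR1848 and 5.19% ± 2.35 with DMSO, while Rars held 0.860% ± 0.911 with SR1848 and 10.8% ± 2.601 with DMSO (SD, n = 80 and n = 50).

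Levels were also set per kilobase of transcript, so that genes could be ranked against each other. Each annotated entry was divided by its own length before entries were summed per gene. Lars2 was first and Fars2 second among the 37 genes in both groups. They had 653 and 166 CPM per kilobase with SR1848 and 254 and 98.8 CPM per kilobase with DMSO. The place of Fars2 rests on the lengths of its entries, the largest of which is not protein-coding. In plain CPM with DMSO Fars2 averaged 60.1, below Nars (193), Rars (191) and Kars (181) among others. Gars was in place 3 with SR1848 and 11 with DMSO, where it had 111 ± 64.7 CPM per kilobase with SR1848 and 38.4 ± 17.7 with DMSO, and its place with SR1848 is not separated from the next beyond the spread. Rars held place 19 with SR1848 and 4 with DMSO, where it had 5.56 ± 6.40 CPM per kilobase with SR1848 and 90.9 ± 27.3 with DMSO. With DMSO, places 2 to 5 (Fars2, Nars, Rars and Kars) lay between 98.8 and 89.6 CPM per kilobase and did not differ beyond their spread. With SR1848 the same holds for places 4 to 6, which were Farsb, Qars and Kars, from 85.4 to 66.02 CPM per kilobase.

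Of the 8 enzymes of the multi-synthetase complex, 6 fell (Rars, Mars1, Lars, Dars, Eprs and Kars), Qars rose and Iars did not pass. Their median log2 fold change was -1.07, and that of the 12 cytosolic enzymes outside the complex was -0.63, of which 8 fell and 1 rose. The complex genes summed to 610 ± 129 CPM with SR1848 and 913 ± 153 CPM with DMSO, and 49 of 80 treated embryos were below the lowest control. All 3 scaffold genes fell as well. Aimp2, the most abundant, had 5.64, 60.8 and 176 CPM with SR1848, against 127, 202 and 317 CPM with DMSO, a log2 fold change of -1.72 (SE 0.129), and Aimp1 fell the furthest, by 2.15. Eef1e1, also called AIMP3, fell by 1.44. By structural class, 5 of 9 cytosolic class I genes fell and 1 rose, and 8 of 10 class II genes fell and 1 rose. Of the mitochondrial genes, 5 of 9 in class I fell and 2 rose, and 4 of 7 in class II fell and 1 rose, where 36.5% of all genes tested fell and 45.6% rose.

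Set side by side for the same amino acid, 17 pairs of a cytosolic and a mitochondrial gene could be tested on both sides, with Eprs and Fars2 in 2 pairs each. In 8 pairs both genes fell, among them those for arginine, asparagine, glutamate, histidine, methionine, serine and tyrosine. For leucine the cytosolic gene fell and the mitochondrial one rose, with log2 fold changes of -1.35 for Lars and 1.36 for Lars2, and the same held for Farsa and Fars2. In 3 pairs, for cysteine, proline and threonine, the cytosolic gene alone passed and fell. In other settings, however, Cars2 was called lower in 3, Pars2 in 2 and Tars2 in 1, while Cars2 changed sign in 2 and Tars2 in 4. Wars2 fell where Wars did not pass (though it fell in 6 of 16 other settings), Fars2 and Vars2 rose where Farsb and Vars did not pass, and for isoleucine neither gene passed. No pair had a cytosolic gene that rose, as Gars and Qars have no separate mitochondrial partner. Mitochondria make glutaminyl-tRNA without a glutamine synthetase: Ears2 places glutamate on the tRNA, and an amidotransferase built from the products of Qrsl1, Gatb and Gatc converts it. These 3 genes were chosen after their values were seen. Qrsl1 averaged 1.11 ± 2.33 CPM with SR1848 and 11.5 ± 6.34 CPM with DMSO, a log2 fold change of -3.34, while Gatb (0.08) and Gatc (-0.27) did not pass. With oocyte-transcript scaling both were called lower, at -0.66 and -0.89, and Gatc also with limma-voom (-0.90).

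**Figure D3:**
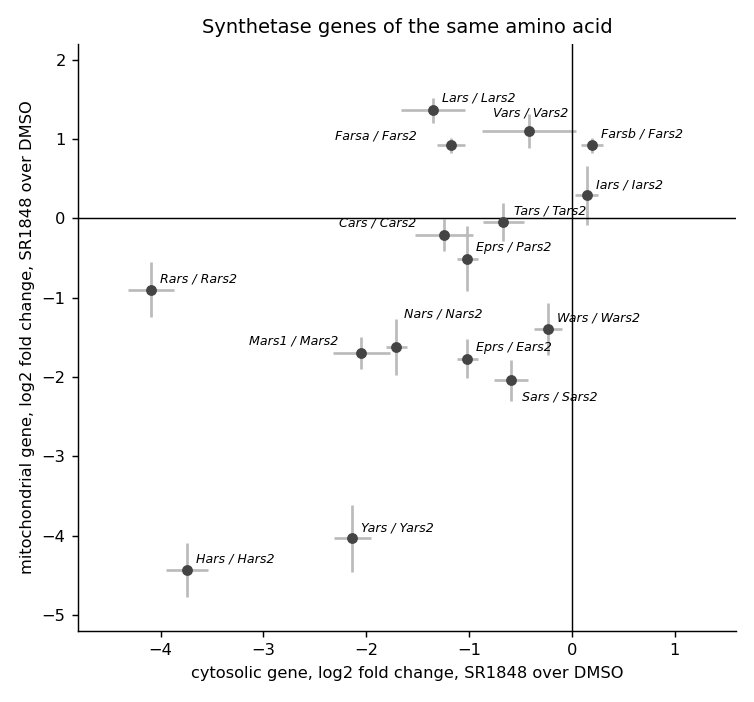
Log2 fold change, SR1848 over DMSO, of the mitochondrial gene against that of the cytosolic gene for the same amino acid, with standard errors as bars, for the pairs reported here. The pair of Hars and Hars2 is at the lower left, at -3.74 and -4.43, and the pairs of Lars and Lars2 and of Farsa and Fars2 lie on opposite sides of 0.

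For most synthetase genes the spread between embryos, relative to the mean, was larger with SR1848. Between treated embryos the coefficient of variation was 119% for Rars, 110% for Yars and 58.5% for Gars, against 30.2%, 38.3% and 46.2% between controls. It was higher with SR1848 in 34 of the 36 genes tested and lower for Sars and Vars2, and for Fars2 it was 33.6% with SR1848 and 33.4% with DMSO. This count was not taken over all genes. Most of the 36 genes also had lower levels with SR1848, and the part of those levels in the larger spread was not tested. Embryo 74 of the SR1848 group, picked because it was highest most often, was the highest treated embryo for 6 of the 23 genes that fell (Aars, Cars, Hars, Mars1, Nars and Rars). It was among the 5 highest for 8 of the 23, but ranked 76 of 80 for Kars, which also fell. It had 0 CPM of Wars2 and Rars2, which fell too and had no count in 15 and 25 treated embryos. It had 85.2 CPM of Rars, where the treated median was 8.12 CPM, and it also had the highest Nr5a2 level of the group, 35.3 CPM. Its total was 3823860 counts. Without this embryo no call of the 36 genes changed.

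The counts were estimated per transcript, which shows that falls and rises within a gene could run apart. Of the 47 protein-coding entries of these genes that were tested singly, 27 fell and 7 rose, and of 21 entries annotated with a retained intron, 10 fell and 11 rose. Among all 25761 transcripts tested, of every type together, 35% fell and 38.5% rose. These shares were not taken by type, so the contrast between types cannot be read as particular to synthetases. Retained-intron transcripts keep all or part of an intron that is spliced out of the mRNA and do not encode the full protein. In Cars2, Yars, Dars, Kars and Eprs the main protein-coding entry fell while such an entry rose. The first junction that tells each pair apart is shown here, because it is where the spliced and the retained entries part. What molecules the reads assigned to retained-intron entries came from was not tested, so these values are counts on annotated entries. Each line has 20 bases of the upstream exon, 5′ to 3′ in the direction of the gene, followed by 20 bases of the next exon (spliced, all lower case) or of the intron (retained, intron bases in capitals). The sequences are from the GRCm38 genome with GENCODE M21 gene models.
Cars2 spliced: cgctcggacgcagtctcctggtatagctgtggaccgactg
Cars2 retained: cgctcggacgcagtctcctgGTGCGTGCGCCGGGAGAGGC
Yars spliced: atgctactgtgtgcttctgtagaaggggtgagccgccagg
Yars retained: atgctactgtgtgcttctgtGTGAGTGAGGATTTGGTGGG
Dars spliced: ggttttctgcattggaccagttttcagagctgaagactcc
Dars retained: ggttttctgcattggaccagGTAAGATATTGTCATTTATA
Kars spliced: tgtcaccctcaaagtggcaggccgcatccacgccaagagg
Kars retained: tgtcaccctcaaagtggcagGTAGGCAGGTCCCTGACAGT
Eprs spliced: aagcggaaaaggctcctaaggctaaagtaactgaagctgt
Eprs retained: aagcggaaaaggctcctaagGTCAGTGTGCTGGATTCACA
The introns are intron 1 of Cars2 (chr8:11550309-11550498, minus strand), intron 11 of Yars (chr4:129215420-129216677, plus), intron 9 of Dars (chr1:128374085-128376177, minus), intron 3 of Kars (chr8:112002605-112003274, minus) and intron 18 of Eprs (chr1:185401669-185406960, plus). All 5 begin with the letters GT, the usual donor. The retained entry of Cars2 holds 2 whole introns and that of Kars 1. Those of Yars, Dars and Eprs hold 0 whole introns and keep intron sequence only in part. None of the intron bases in these entries lies within another annotated gene.

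Cars2 was the clearest case, since its summed level did not pass. The protein-coding Cars2-201 had 0, 0.577 and 31.8 CPM with SR1848, against 7.45, 21.7 and 76.7 CPM with DMSO, and 72 of 80 treated embryos were below every control. The retained-intron entry Cars2-212 had 1.46, 19.3 and 308 CPM with SR1848, against 1.90, 7.94 and 34.3 CPM with DMSO. The log2 fold changes were -3.15 (SE 0.376) and 1.76 (SE 0.254), and the retained entry held 86.2% of the gene's counts with SR1848 and 21.1% with DMSO. Among the words of 31 bases, 7.44% of those in Cars2-212 and 19.7% of those in Cars2-201 occur in other genes. In Yars, Yars-201 fell by 3.32 and Yars-208 rose by 2.66 on the log2 scale. Dars-201 fell by 1.69 and Dars-203 rose by 1.62, Kars-201 fell by 1.24 and Kars-206 rose by 1.70, and Eprs-201 fell by 1.20 and Eprs-203 rose by 1.52. Other retained-intron entries of the same genes fell, such as Eprs-204 (-3.81) and Yars-202 (-3.25).

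The count ratio of retained-intron to protein-coding entries was then taken in each embryo, as log2 with 0.5 added to both counts, and tested with limma over 2985 genes. It was higher with SR1848 in 6 of the 13 synthetase genes tested and lower in 0, against 39.3% higher and 19.2% lower of all genes tested, so a higher ratio is not particular to synthetases. At an unadjusted p under 0.05 the limma count of lower ratios was 2. For Cars2 the median log2 ratio was 4.80 with SR1848 and -1.49 with DMSO, and 67 of 80 treated embryos were above the highest control. The median for Dars was -1.38 with SR1848 and -4.57 with DMSO, with 70 treated embryos above every control. For Kars it was -1.86 with SR1848 and -4.08 with DMSO, with 66 above, and for Yars 0.228 with SR1848 and -2.68 with DMSO, with 32 above. The differences of the means were 6.07 for Cars2 (SE 0.441), 3.60 for Yars (SE 0.417), 3.23 for Dars (SE 0.217) and 2.25 for Kars (SE 0.196). Where an embryo had few or no protein-coding counts, as many treated embryos did for Cars2, the size of its ratio depends on the 0.5 added. Iars (1.06) and Qars (0.60) passed with smaller differences, and Eprs did not pass (0.14, limma adjusted p = 0.612), with 13 treated embryos above every control and 15 below. Over the whole library, retained-intron entries took 4.81% ± 1.45 of counts with SR1848 and 4.15% ± 0.396 with DMSO (SD), and the part of that difference in these ratios was not tested.

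**Figure D4:**
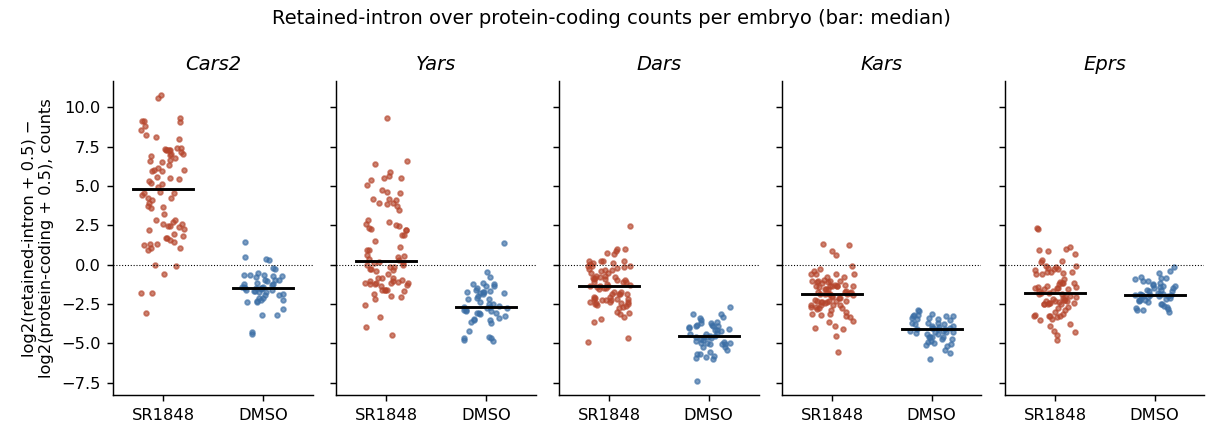
Log2 ratio of retained-intron to protein-coding counts, with 0.5 added to each, in single embryos for 5 synthetase genes, SR1848 left and DMSO right; bars are medians and the dotted line marks equal counts. The Cars2 median is 4.80 with SR1848 and -1.49 with DMSO, while for Eprs 13 treated embryos lie above the control range and 15 below it.

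When protein-coding entries alone were summed, Cars2 fell by 2.998 on the log2 scale (edgeR adjusted p = 1.2e-13), Yars by 3.16, Dars by 1.52 and Kars by 0.64. Farsb rose at 0.25 on this sum, by which 36.5% of 11490 genes were called lower and 45.1% higher. In the authors' deposited table, which tests each transcript, the sign of the log2 fold change matched the counts in 26 of the 31 synthetase transcripts with a base mean over 50.

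Promoter windows, from 250 bases before to 50 bases after the annotated start, were searched on both strands for letter motifs. RefSeq windows on GRCm38.p6 were at hand for 27 of the 37 genes, 28 windows in all, and not, among others, for Cars, Hars, Hars2, Lars, Nars, Pars2, Rars, Vars and Wars. The letters TCAAGGNCA, to which Nr5a2 is known to bind, were in 0 of the 28 windows and in 1.62% of all 32851 windows. TGATGNAA, the core of the amino acid response element bound by Atf4 and its partners, was in 5 windows (17.9%) and in 3.97% of all. CCGGAAG, an ETS site, was in 32.1% of the windows and 8.86% of all. The windows had a median GC content of 57.3%, against 52.7% over all. The E-box CACGTG was in 17.9% and 7.15%, and the NRF1 motif was in 0% and 0.971%. A match to TGATGNAA in each of these 5 genes is given because they sit in genes that moved in both directions, with 10 bases on either side, 5′ to 3′ in the direction of the motif, and the motif in capitals.
Gars: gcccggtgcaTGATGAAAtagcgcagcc
Yars: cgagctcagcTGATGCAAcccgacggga
Aars: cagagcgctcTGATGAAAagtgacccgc
Iars: cgtctggaggTGATGCAAtactgacagt
Tars: gctaaccagcTGATGCAAcgggactcct
The Gars match is at chr6:55037971-55037978, 30 bases before the start, and that of Yars at chr4:129189906-129189913, 3 bases after it. Aars has a match at chr8:111033851-111033858, 9 bases after its start. Those of Iars and Tars are at chr13:49682137-49682144, 7 bases after the start, and at chr15:11399666-11399673, 15 bases before it. The Yars motif reads in the direction of its gene, and the others read opposite to theirs. Gars rose, Yars, Aars and Tars fell and Iars did not pass, so the genes that share these letters did not share a direction.

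The other genes of tRNA biology were read from lists written for this comparison, beside all genes tested, of which 36.5% fell and 45.6% rose. RNA polymerase III, which transcribes tRNA genes, had the lowest median among the lists of more than 3 genes: 26 of its 30 genes and factors fell and 3 rose, with a median log2 fold change of -1.71. Polr3g, a subunit of the enzyme, averaged 6.89 ± 5.28 CPM with SR1848 and 88.2 ± 36.9 CPM with DMSO (-3.67), and the most abundant gene, Polr1c, a subunit shared with polymerase I, fell by 0.60. Maf1, a repressor of polymerase III, rose by 2.51, with 202 ± 129 CPM with SR1848 and 35.3 ± 17.4 CPM with DMSO. Of the genes for tRNA processing and export 17 of 28 fell and 8 rose (median -1.09). Xpot, the tRNA exporter, fell by 3.72, the mitochondrial RNase P subunit Hsd17b10 rose by 2.19, and the abundant phosphatase Angel2 rose by 1.38. Among tRNA modification genes 35 of 59 fell and 12 rose (median -0.73): the pseudouridine synthase Trub2 fell by 4.31, the abundant methyltransferase Nsun2 fell by 0.62 (-0.39 and not called in embryos numbered above 40), and the methylthiotransferase Cdkal1 rose by 1.58.

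Other lists of translation genes are set here beside all genes tested, of which 36.5% fell and 45.6% rose. Of 17 mitochondrial translation factors 11 fell and 6 rose, with a median of -0.64. In that list Rcc1l, a factor of mitochondrial ribosome assembly, fell by 3.66, Guf1, an elongation factor, rose by 1.82, and the most abundant gene, the methyltransferase Nsun4, rose by 1.28. Of 15 cytosolic elongation and release factors 6 fell (40%) and 5 rose (33.3%), near those shares, with a median of -0.07 that turned to 0.15 with upper-quartile factors. The most abundant, Eif5a, averaged 1198 ± 380 CPM with SR1848 and 1212 ± 326 CPM with DMSO (edgeR adjusted p = 0.84), but was called higher with upper-quartile factors (0.20) and lower with oocyte-transcript scaling (-0.59) and total counts (-0.20). The release factor Gspt1 fell by 2.18, and the ribosome rescue factor Gtpbp2 rose by 1.42. Of 18 synthetase relatives and editing factors 7 fell and 6 rose, with a median of 0.11 that was -0.55 with oocyte-transcript scaling. A pair of genes for selenocysteine use rose, Sephs2, the most abundant, by 1.48 and Eefsec by 1.76.

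The amino acid response, in which uncharged tRNA leads through Atf4 to higher synthetase and amino acid synthesis transcripts, was near the background: 13 of 27 genes rose (48.1%) and 9 fell (33.3%), against 45.6% and 36.5% of all genes tested. The median was 0.05, and -0.26 with oocyte-transcript scaling. Its most abundant gene, the phosphatase subunit Ppp1r15a, rose by 1.03 and the transcription factor Cebpb by 2.68. Xpot, also in this list, fell by 3.72. Chosen after their values were seen, Atf4 averaged 261 ± 125 CPM with SR1848 and 171 ± 49.3 CPM with DMSO (0.61, and 0.21 with no call with oocyte-transcript scaling), while Psat1 and Phgdh, of serine synthesis, had log2 fold changes of -3.67 and -2.80.

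**Figure D5:**
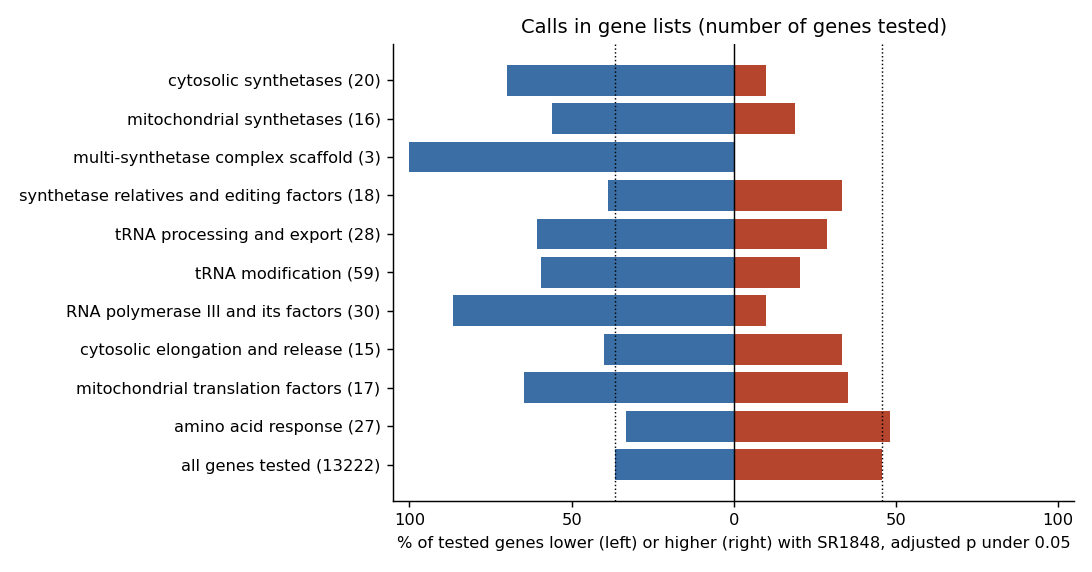
Percent of the tested genes of each list called lower (bars to the left) or higher (bars to the right) with SR1848 by edgeR at an adjusted p under 0.05, with the number of genes tested in brackets; dotted lines mark all genes tested, 36.5% lower and 45.6% higher. The polymerase III list reaches furthest to the left among lists of more than 3 genes, at 86.7%.

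Markers of other cells that could cling to or enter an embryo were summed per embryo. Cumulus cell markers (15 genes) ranged over 7.22 to 863 CPM with SR1848 (median 25.8), and 11.7 to 132 CPM with DMSO (median 47.1). The 10 sperm markers ranged over 146 to 881 CPM with SR1848 (median 494), and 70.2 to 374 CPM with DMSO (median 212), nearly all from Odf2, and 1 of the 10 was at 0 in every embryo. The 7 blood markers ranged over 59.5 to 673 CPM with SR1848 (median 210), and 6.21 to 134 CPM with DMSO (median 34.7), nearly all from the alpha globins Hba-a1 and Hba-a2, and 1 of the 7 was at 0 throughout. The part of these levels in the synthetase results was not tested.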

How the data were processed

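The authors deposited kallisto estimated counts per transcript, with 119358 entries in 130 embryos. Their log2 table, which the counts give, was checked and not used further. The authors' deposited table of their DESeq2 comparison gave gene symbols, log2 fold changes and base means, a signal value per transcript. The p-values and the test score that the authors deposited there came from the same comparison and were not used. The submitters' processing notes name DESeq2 1.32.0 on R 3.5.1, kallisto 0.46.1 and Trim Galore 0.6.2.

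Counts were summed per gene and rounded; entries without a gene held 0.761% of counts and were left out. Genes passing filterByExpr were tested with edgeR 4.0.16 in R 4.3.3 (TMM, robust quasi-likelihood, two-sided, Benjamini-Hochberg over all 13222 genes, threshold 0.05), and transcripts likewise. Each SE is the size of the log2 fold change divided by the square root of its F. Ratios of retained-intron to protein-coding counts were tested with limma 3.58.1, for genes with a mean of at least 5 counts of each kind and 10 or more in sum in at least 50% of the embryos of each group. Coordinates and transcript types are from GENCODE M21 (GRCm38), by identifier. Estimated counts divide reads among entries that share sequence, and reads carry no molecular identifiers. Both tests were run on simulated data in which few genes changed, equally up and down. That setting cannot show how scaling acts when most genes are called, as here. No 2 embryos of a group agreed within sampling noise.

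The synthetase genes and all gene lists were chosen with earlier results of these data known. From each list the text names the most abundant gene and the largest rise and fall, and other names are marked. Some items are not reported here. Alternatives were other scalings and filters, DESeq2 1.42.0, limma-voom, depth as a covariate, the embryo number as a block, leaving out shallow embryos, embryos numbered up to or above 40, and the most abundant transcript. Summing protein-coding transcripts, leaving out embryo 74, and the variants for lists, transcripts and ratios were added after seeing the data.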

Additional observations from a re-analysis of the deposited data

How the results depend on the processing

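Over 16 other settings the 36 synthetase genes gave 563 log2 fold changes, of which 516 kept direction and call, 21 passed the threshold anew, 11 lost the call and 15 changed sign. For 22 genes, Rars, Hars, Hars2, Yars2, Gars, Lars2 and Fars2 among them, nothing changed in any setting. Calls were lost for Aars, Kars and Rars2 with upper-quartile factors, for Qars with oocyte-transcript scaling and its most abundant transcript, for Rars2 in embryos numbered up to 40, for Aars, Qars, Sars and Vars2 in embryos numbered above 40, and for Aars with protein-coding transcripts. The genes that changed sign had not passed. Cars2 was 0.016 with upper-quartile factors and 1.86 by its most abundant transcript, and Tars2 was 0.18, 0.027, 0.22 and 0.42 with upper-quartile factors, a filter of 5 CPM, its most abundant transcript and protein-coding transcripts. Farsb was -0.0095, -0.60 and -0.036 and Iars -0.045, -0.45 and -0.11 with total counts, oocyte-transcript scaling and embryos numbered above 40. Farsb and Iars were both called lower with oocyte-transcript scaling. Iars2 was -0.14 with oocyte-transcript scaling, and Vars 0.089 in embryos numbered up to 40. The ratio was 0.012 for Tars with a pseudocount of 2 and -0.010 for Aars in embryos numbered up to 40. The causes were not tested.

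Counts also moved by over 1.5 times. Genes called higher numbered 3506 with oocyte-transcript scaling and 10315 without a filter, and genes called lower 7396 without a filter. Cytosolic synthetases called higher, 2 as reported, numbered 4 with upper-quartile factors and in embryos numbered up to 40, and 1 with oocyte-transcript scaling, in embryos numbered above 40 and by the most abundant transcript. The pathway lists had 53 genes called higher, against 34 with oocyte-transcript scaling. By list, those higher with that scaling were 2 of the mitochondrial factors (3 with total counts and above 40, where 6 were lower), 3 of the relatives (3 above 40), 7 of modification and 8 of the response. Protein-coding entries called higher numbered 11 in embryos up to 40 and 4 above 40, retained-intron entries 6 higher and 6 lower above 40, and 1 ratio was lower up to 40, that of Nars. With the embryo number as a replicate block, 5176 genes were called higher and 4917 lower of 12542 tested, and Iars2 was -0.10. Nothing in the labels says that equal numbers pair embryos. Over 50 numbers the correlation of deviations ran from -0.192 to 0.124 with a median of 0.0189, and 1 embryo correlated best with its own number. Such low correlations cannot show that embryos of equal number share no handling.

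Low genes such as Vars, Aars2, Pars2 and Iars2, absent from many embryos, are measured least precisely.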
